A study of Homo sapiens with 2 samples.

Results

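The BCL2 family decides whether the outer mitochondrial membrane stays intact when a cell is under stress. BCL2, BCL2L1 (BCL-XL) and MCL1 bind and hold back the pore-forming members and so keep cells alive, while BCL2L11 (BIM) is a death-inducing member that binds these survival proteins. In mouse lymphocytes, BIM takes part in the deletion of self-reactive cells, and in humans BCL2 is switched on by a translocation to the immunoglobulin heavy chain locus in follicular lymphoma. ETV6 is a transcription factor of the ETS family, whose members recognise DNA around a GGAA core, and it acts mainly as a repressor.

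Peaks of tagged ETV6 were examined in windows around these 4 genes in Reh cells, an established pre-B leukaemia line with a translocation that joins ETV6 to RUNX1. A peak belonged to a window when its summit lay in the gene span or within 20 kb of either end. This gave 79 of the 315787 peaks listed: 42 at BCL2, 17 at BCL2L1, 16 at BCL2L11 and 4 at MCL1. The cells of the positive arm were transduced with a pCCL lentiviral vector for ETV6-HA, and the negative control cells with the same vector for untagged ETV6. Both received 200 ng of virus with polybrene at 8 µg/mL and were grown for 2 weeks, and both went through an anti-HA bead pulldown. Each arm was 1 pooled library, and the study's design speaks of triplicates. The tag is on the transduced ETV6, so the pulldown was aimed at an introduced protein. Whether each listed peak is a site of that protein was not tested. Peaks are those listed for the tagged pool, placed on hg19, and a list of the untagged pool was not used here. With 1 library an arm there is no replicate spread to set a difference against, so values are compared without a test. No expression was measured, so neither the cell type's markers nor the genes' activity could be checked.

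Height is given as the summit pileup, the number of reads piled up at the highest point of a peak, which was recovered from the deposited fold enrichment and p-value. The lowest pileup in the list was 12 reads and the median was 14 reads, over a background of 4.29 reads that 95.8% of peaks shared. At that background 1 read more or less moved the fold enrichment by 0.189, so neighbouring heights differ by single reads. Intervals are exact Clopper-Pearson 95% intervals. They cover counting error over peaks only, since peaks of 1 library are not replicates.

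The windows held weak peaks, and none lay at a gene start. The 79 peaks had a median pileup of 14 reads, with a range of 12 to 21 reads, and a median fold enrichment of 2.84, with a range of 2.46 to 4.16. The whole list had the same median pileup and the same median fold enrichment, so low peaks were not particular to these windows. Of them, 58 lay inside a gene span and 21 in a flank. The gene spans also took up most of the 467 kb of the windows, so these counts alone show no preference. No peak summit lay within 1 kb of the start of any of the 4 genes, taken as the 5′ end of the gene span. Other transcript starts inside a span were not placed. The median distance between neighbouring summits on their chromosomes was 3.56 to 6.29 kb. A stretch of 1 kb on either side without a summit was therefore common there. Peaks were denser at BCL2 than along its chromosome, while the other 3 windows had intervals that included their chromosome's density. These calls depended on the peaks kept: at q of at most 0.01 the BCL2 ratio was 1.97 (0.792 to 4.04), and at BCL2L11 the interval lay above 1 in 2 of 7 alternatives. Tiles of the BCL2 window's length, laid end to end along chromosome 18, held 3 to 43 peaks in the range from 5% to 95%, which includes the 42 at BCL2.

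**Figure D1:**
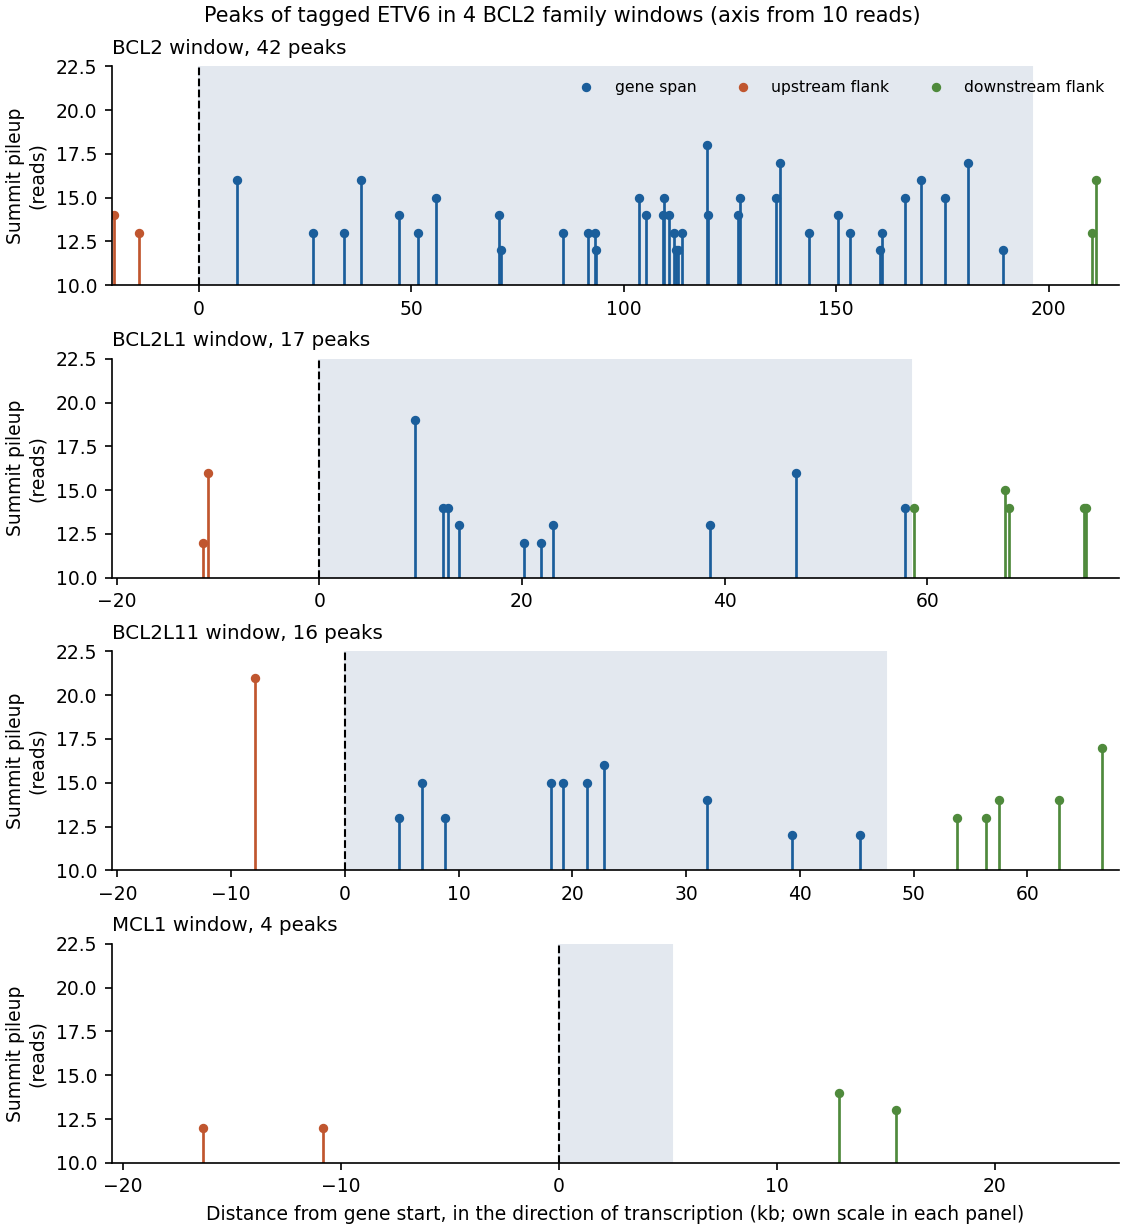
Summit pileup in reads (vertical axis, from 10 reads) of each peak against the distance of its summit from the gene start in kb, with positive distances inside and beyond the gene. The shaded area is the gene span, the dashed line the gene start, and colours mark the gene span and the 20 kb flanks. The stretch around each gene start is empty, and the highest peak of the 4 windows, with 21 reads, stands upstream of BCL2L11.

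Annotated promoter sequences are shown first, because the empty stretches lie around the gene starts. RefSeq promoters of GRCh38.p14 run from 250 bases before to 50 bases after a transcript start, and 3 of the 4 genes have an entry, BCL2L1 with 2 of them. These coordinates belong to another build than the peaks and were not set against them. Which of the 2 BCL2L1 entries lies at the gene start used for the peaks was not determined. Letters in capitals are GGAA, or TTCC where the core is read on the other strand. The BCL2 promoter lies at chr18:63319720-63320019 on the minus strand, the first BCL2L1 promoter at chr20:31723914-31724213 on the minus strand, and the BCL2L11 promoter at chr2:111120664-111120963 on the plus strand.
BCL2: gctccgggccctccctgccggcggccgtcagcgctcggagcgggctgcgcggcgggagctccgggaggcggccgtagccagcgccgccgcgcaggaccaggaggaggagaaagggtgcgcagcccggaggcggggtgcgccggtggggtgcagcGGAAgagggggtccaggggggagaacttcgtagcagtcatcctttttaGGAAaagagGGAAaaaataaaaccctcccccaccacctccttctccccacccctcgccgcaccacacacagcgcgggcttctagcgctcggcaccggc
BCL2L1: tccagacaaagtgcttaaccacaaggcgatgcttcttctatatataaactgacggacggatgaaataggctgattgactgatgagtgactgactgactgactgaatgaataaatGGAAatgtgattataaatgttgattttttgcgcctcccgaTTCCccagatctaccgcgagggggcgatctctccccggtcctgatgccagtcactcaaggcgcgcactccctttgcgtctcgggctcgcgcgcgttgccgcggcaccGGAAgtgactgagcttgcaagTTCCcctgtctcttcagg
BCL2L11: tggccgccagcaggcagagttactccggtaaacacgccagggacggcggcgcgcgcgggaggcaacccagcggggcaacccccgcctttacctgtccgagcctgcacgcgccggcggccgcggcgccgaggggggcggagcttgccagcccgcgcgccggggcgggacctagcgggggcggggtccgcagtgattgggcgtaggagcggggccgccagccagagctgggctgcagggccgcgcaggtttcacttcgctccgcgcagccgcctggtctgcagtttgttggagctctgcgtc

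The promoters differed in their ETS core letters. That of BCL2 had 3 GGAA matches counted over both strands, and that of BCL2L11 had 0. The BCL2L1 promoter shown had 4 GGAA matches, and 1 of them sat in the longer run CCGGAAGT, the letters usually given as the ETS consensus, which starts at position 260 of the 300 bases. The other BCL2L1 promoter had 2 GGAA matches and 0 of CCGGAAGT. Over all 34943 RefSeq promoters of this length, 95.4% held GGAA on either strand, 17.2% held CCGGAA and 4.11% held CCGGAAGT, the shorter motifs being contained in the longer ones. A promoter without GGAA, as at BCL2L11, and one with CCGGAAGT, as at BCL2L1, were thus both uncommon. These are matches of letters, not sites of binding. The share of G and C was 70.7% in the BCL2 promoter and 74.7% in that of BCL2L11, above the median of 58.7% over all promoters. It was 52% in the BCL2L1 promoter shown, below the median, and 61.3% in the other BCL2L1 promoter, above it.

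BCL2, the founding survival gene of the family, had the most peaks. Its window spanned chr18:60770579-61006613 and held 42 peaks in 236 kb, or 177.9 per Mb, against 83.2 per Mb along chromosome 18 (6491 peaks over 78 Mb). At the chromosome's density 19.6 peaks would fall in such a window, and the ratio of the densities was 2.14 (1.54 to 2.89). The 10 Mb around it, 5 Mb on each side, had 81.4 peaks per Mb, so the excess was of the same size against the neighbourhood, at 2.19. When chromosome 18 was cut into 330 consecutive tiles of the same length, 309 held fewer peaks, 2 held as many and 19 held more. The densest tile held 69 peaks. The window was therefore in the upper part of its chromosome's range, and tiles with more peaks made up 5.76% of it.

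Most of the window's peaks lay inside the gene. The 196 kb gene span held 38 peaks, or 193.8 per Mb, and the upstream and downstream flanks held 2 peaks each, or 100 per Mb. The high density was not confined to the gene, since the next 30 kb beyond the downstream flank held 8 peaks, or 266.7 per Mb, and the next 30 kb beyond the upstream flank held 0. Divided into 4 equal parts of 49.0 kb from the gene start, the span held 5, 8, 16 and 9 peaks. Each part was above the chromosome's 83.2 per Mb, with the third, from 98.0 to 147.0 kb into the gene, at 326.5 per Mb. There the densest 10 kb of the window, at chr18:60872688-60881499, held 8 peaks of 12 to 15 reads. This stretch was picked as the densest of its window. Of the 330 tiles of chromosome 18, 8 held the start of a 10 kb stretch with at least 8 peaks of any height, and the highest number was 11. In the annotation of GRCh38.p14 the next coding genes are KDSR on the upstream side and PHLPP1 on the downstream side.

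The tallest BCL2 peak was at chr18:60866809-60867006, 119.7 kb into the gene, with 18 reads, a fold enrichment of 3.59, a width of 198 bp and q of 0.000555. A lower q was given to 3.79% of all peaks in the list, so this is not among the strongest peaks of the experiment. Peaks of 17 reads followed at chr18:60849584-60849790 and chr18:60805490-60805734, with widths of 207 and 245 bp. The widest of the window, at chr18:60816454-60816744, was 291 bp wide and had 16 reads. Nearest to the gene start lay chr18:60977523-60977709 inside the gene, at 8.97 kb with 16 reads and 187 bp. On the other side the nearest was chr18:61000704-61000774, 14.1 kb upstream with 13 reads. The remaining peaks of 16 reads were chr18:60948271-60948424 in the gene, 38.2 kb from its start, and chr18:60775307-60775466 in the downstream flank. The 7 peaks with at least 16 reads were thus spread along the gene and beyond its end. The other 35 peaks had 12 to 15 reads, and only chr18:60900885-60900945 among all 42 had a background above the shared one, of 4.70 reads.

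BCL2L1 encodes BCL-XL, or by another splice choice the death-promoting BCL-XS. Its window, chr20:30232255-30330656, held 17 peaks in 98.4 kb, or 172.8 per Mb, against 158.7 per Mb along chromosome 20 (9975 peaks over 62.9 Mb). The ratio was 1.09 (0.634 to 1.74), and 351 of 638 tiles of that length held fewer peaks, 24 as many and 263 more. The density was thus near the middle of its chromosome's range. The 58.4 kb gene span held 10 peaks, the downstream flank 5 and the upstream flank 2. TPX2, which codes for a spindle protein, is the next coding gene upstream and COX4I2 the next downstream in GRCh38.p14.

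The second tallest peak of the 4 windows was in this gene. It lay at chr20:30301201-30301363, 9.42 kb from the gene start, and was the nearest to that start, with 19 reads, a fold enrichment of 3.78, a width of 163 bp and q of 0.000158. A lower q was given to 2.37% of the list. Peaks of 16 reads were at chr20:30263526-30263626 in the gene and at chr20:30321566-30321668, 11.0 kb upstream. The other 14 peaks had 12 to 15 reads, the tallest of them at chr20:30242951-30243077 in the downstream flank with 15 reads and 127 bp. Of the 5 peaks in that flank, 4 came in close pairs, such as chr20:30234942-30235030 and chr20:30235200-30235316 with 14 reads each.

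BCL2L11 encodes BIM, the death-inducing member of the set. Its window, chr2:111858491-111946022, held 16 peaks in 87.5 kb, or 182.8 per Mb, against 108.6 per Mb along chromosome 2 (26402 peaks over 243.0 Mb). The ratio was 1.68 (0.962 to 2.73), an interval that just reached 1, and 2286 of 2776 tiles held fewer peaks, 70 as many and 420 more. The density in peaks per Mb was close to that of the BCL2 window, but with 16 peaks the counting interval of its ratio to the chromosome included 1. With flanks of 50 kb the interval lay above 1, at 1.62 (1.06 to 2.38), and likewise with peaks within 1000 bp merged, at 1.88 (1.05 to 3.10). The tiles varied widely, with 1 to 23 peaks in the range from 5% to 95%, which includes the 16 here. The 47.5 kb gene span held 10 peaks, the downstream flank 5 and the upstream flank 1.

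That single upstream peak was the highest and widest of all 79. It lay at chr2:111870416-111870755, 7.92 kb before the gene start, with 21 reads, a fold enrichment of 4.16, a width of 340 bp and q of 9.32e-06. A lower q was given to 3771 peaks, or 1.19% of the list, and to 0.909% of the peaks on chromosome 2. ACOXL, an acyl-CoA oxidase-like gene, is the next coding gene upstream in GRCh38.p14, and whether the peak lies in it was not determined on hg19. The next peaks by height were chr2:111944942-111945139 in the downstream flank with 17 reads and 198 bp, and chr2:111901232-111901300 in the gene with 16 reads and 69 bp. Inside the gene, the peak nearest to the start was chr2:111883246-111883365, 4.79 kb in, with 13 reads and 120 bp, and it was the single peak of the 4 windows within 5 kb of a gene start. Peaks of 15 reads included chr2:111885228-111885308 and chr2:111896558-111896656. The gene peaks had 12 to 16 reads, and 4 of the 10, with 15 or 16 reads, lay between 18.1 and 22.8 kb from the start.

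MCL1, a short-lived survival protein, is the smallest gene of the set. No peak lay in its 5.19 kb span. Its window, chr1:150527027-150572214, held 4 peaks in 45.2 kb, or 88.5 per Mb, against 122.0 per Mb along chromosome 1 (30304 peaks over 248.5 Mb). The ratio was 0.726 (0.198 to 1.86), so a density below, equal to or above the chromosome's was possible at this count. Of 5499 tiles of that length, 2281 held fewer peaks, 490 as many and 2728 more, and the median tile also held 4. These counts include 793 tiles without any peak. Among the 4706 tiles with a peak the median was 5, and 31.6% held fewer than the MCL1 window. The window was thus within the usual range of its chromosome, and on the lower side when empty tiles are left out. An empty span of 5.19 kb was no rarity there either, as 40.4% of the distances between neighbouring summits on chromosome 1 were at least that long and their median was 3.77 kb.

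All 4 MCL1 peaks were near the lower limit of the list. Downstream of the gene, chr1:150539326-150539390 had 14 reads and 65 bp, and chr1:150536675-150536761 had 13 reads and 87 bp. Upstream, chr1:150563024-150563076 had 12 reads and 53 bp, and chr1:150568492-150568558 had 12 reads and 67 bp. Their q values ran from 0.0244 to 0.0841, and the nearest summit to the gene start was 10.8 kb away. The next coding genes in GRCh38.p14 are ENSA upstream and ADAMTSL4 downstream.

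**Figure D2:**
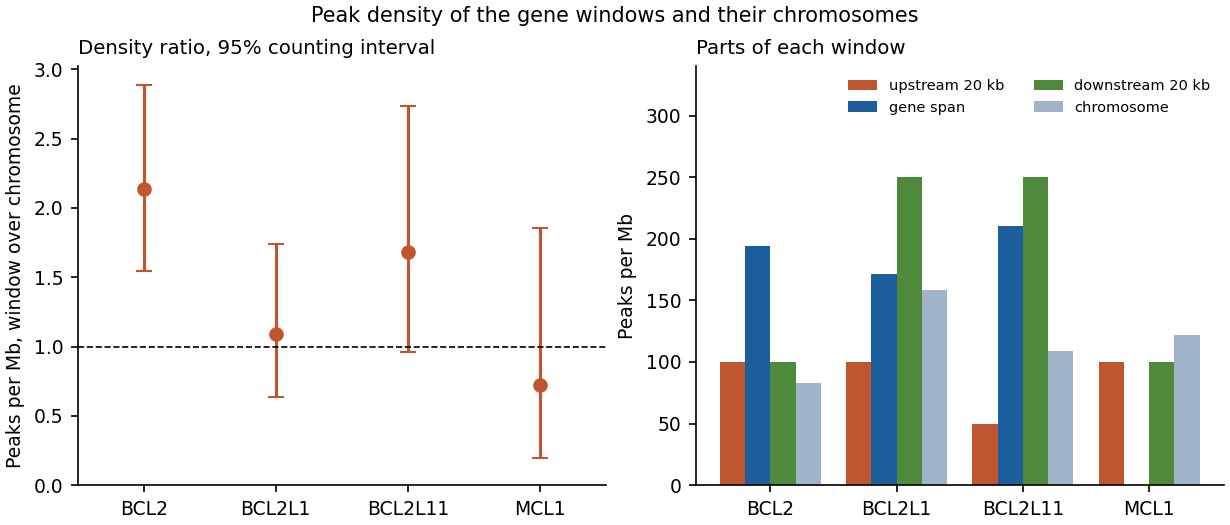
Left, peaks per Mb in each window divided by peaks per Mb of its chromosome, with exact 95% counting intervals and a dashed line at 1. Right, peaks per Mb in the upstream 20 kb, the gene span, the downstream 20 kb and the chromosome, with BCL2 at 193.8 per Mb in the gene span against 83.2 per Mb on chromosome 18 and MCL1 at 0 in its span.

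In order of density the windows ran from BCL2L11 with 182.8 peaks per Mb through BCL2 with 177.9 and BCL2L1 with 172.8 to MCL1 with 88.5. Relative to the chromosome the order was BCL2, BCL2L11, BCL2L1 and MCL1. The change of order came from the chromosomes, which ranged from 83.2 peaks per Mb on chromosome 18 to 158.7 on chromosome 20. The intervals of neighbours in the second order overlapped each time, and no difference between genes was tested.

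**Figure D3:**
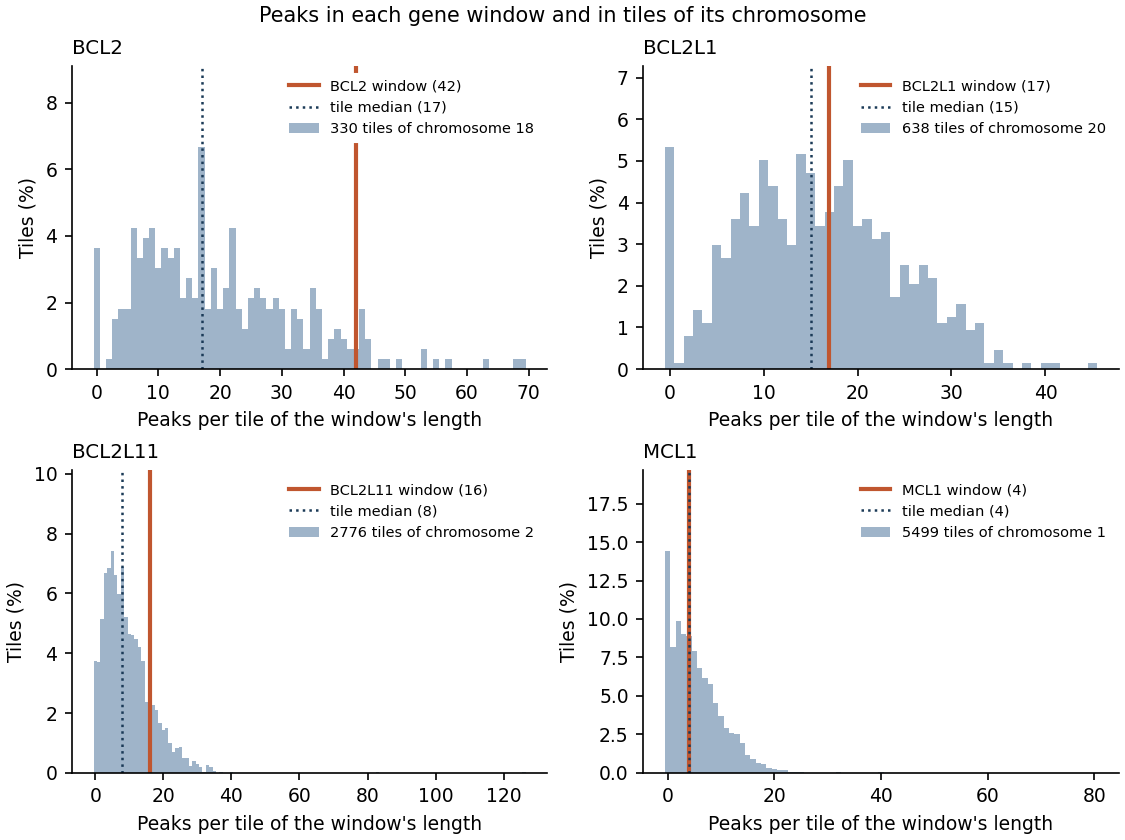
Share of consecutive tiles (vertical axis, percent) by the number of peaks they hold, for tiles of each window's length along its own chromosome. The solid line marks the gene window and the dotted line the median tile: 42 against 17 for BCL2, 17 against 15 for BCL2L1, 16 against 8 for BCL2L11, and 4 against 4 for MCL1. Tiles without a peak are included, and without them the median for MCL1 was 5.

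The empty stretches around the gene starts had a feature in common. Among distances with both summits inside a window, the longest in each of the 4 windows was the one that contained the gene start. It measured 23.1 kb at BCL2, 20.4 kb at BCL2L1, 12.7 kb at BCL2L11 and 23.7 kb at MCL1. Distances across a window edge were left out, and MCL1 had only 4 peaks. Beyond the high end of BCL2 no peak followed for 31.5 kb, which is longer than the distance at its start. At the low end of BCL2L11 the first summit lay 12.1 kb inside the edge and the next 0.624 kb outside. They were thus about as far apart as the summits around the BCL2L11 start. The median distance between neighbouring summits within the windows was 4.35, 2.26, 3.78 and 5.51 kb in the same order of genes. Counted by number, distances at least as long were 13.0% of those on BCL2's chromosome, 4.45% on that of BCL2L1, 20.7% on that of BCL2L11 and 5.94% on that of MCL1. Counted by length they took up more, as a long stretch covers more positions. Stretches at least as long made up 51.0% of the length of chromosome 18 between summits, 27.3% of chromosome 20, 63.7% of chromosome 2 and 39.9% of chromosome 1. These shares include stretches of more than 500 kb without a peak. Leaving those out would lower each share, and the lowered shares were not computed. A stretch of this kind was thus in the minority by number and held 27.3% to 63.7% of positions by length, with the longest stretches counted in. The pattern was noticed after the positions were seen.

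In height the 79 peaks were close to those of their chromosomes. Of the 79 peaks, 13 had at least 16 reads, which is 16.5% (9.06 to 26.5), against 21.2% of the whole list and 20.7% of the peaks on the 4 chromosomes. By gene the numbers were 7 of 42 at BCL2, 3 of 17 at BCL2L1, 3 of 16 at BCL2L11 and 0 of 4 at MCL1. The share was near the background, so the windows were not set apart by tall peaks. The same 13 peaks had q of at most 0.01. At least 18 reads were reached by 3 of the 79, or 3.80%, against 6.29% on the 4 chromosomes. At the other end, 13 of the 79, or 16.5%, had the lowest pileup of 12 reads, against 9.51% on the 4 chromosomes. In the BCL2 window the 7 peaks of at least 16 reads came to 29.7 per Mb, against 15.3 per Mb on chromosome 18. For BCL2L1 the values were 30.5 and 32.7 per Mb, for BCL2L11 34.3 and 22.0 per Mb, and for MCL1 0 and 26.4 per Mb.

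No strong peak fell in any window. With strong taken as at least 25 reads, the nearest to the BCL2 start was 272 kb away at chr18:61258533-61258774, with 41 reads and a fold enrichment of 7.94. For BCL2L1 the distance was 657.4 kb, for BCL2L11 1038.8 kb and for MCL1 1640.4 kb. Such peaks were rare everywhere, at 0.564 to 1.42 per Mb on the 4 chromosomes, so that at these densities 0.0640 to 0.133 would fall in a window. Windows of this size would mostly hold none, so the absence of strong peaks cannot show whether they differ from the chromosomes.

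Widths followed height. The median member was 86 bp wide, with a range of 51 to 340 bp, against 99 bp on the 4 chromosomes. At 12 reads the median width was 60 bp in the windows, against 66 bp on the chromosomes, and at 14 reads it was 89.5 bp, against 95 bp. The 7 peaks of 16 reads had a median of 154 bp, against 132 bp. Set beside the median width of peaks of the same pileup on their chromosome, 36 of the 79 were wider and 43 narrower. At BCL2 the numbers were 22 and 20, at BCL2L1 7 and 10, at BCL2L11 5 and 11, and at MCL1 2 and 2. Width thus gave no common sign at the 4 genes. In all, the peaks covered 1.92% of the BCL2 window, 1.61% of that of BCL2L1, 1.86% of that of BCL2L11 and 0.602% of that of MCL1, against 0.875%, 1.77%, 1.18% and 1.39% of their chromosomes.

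**Figure D4:**
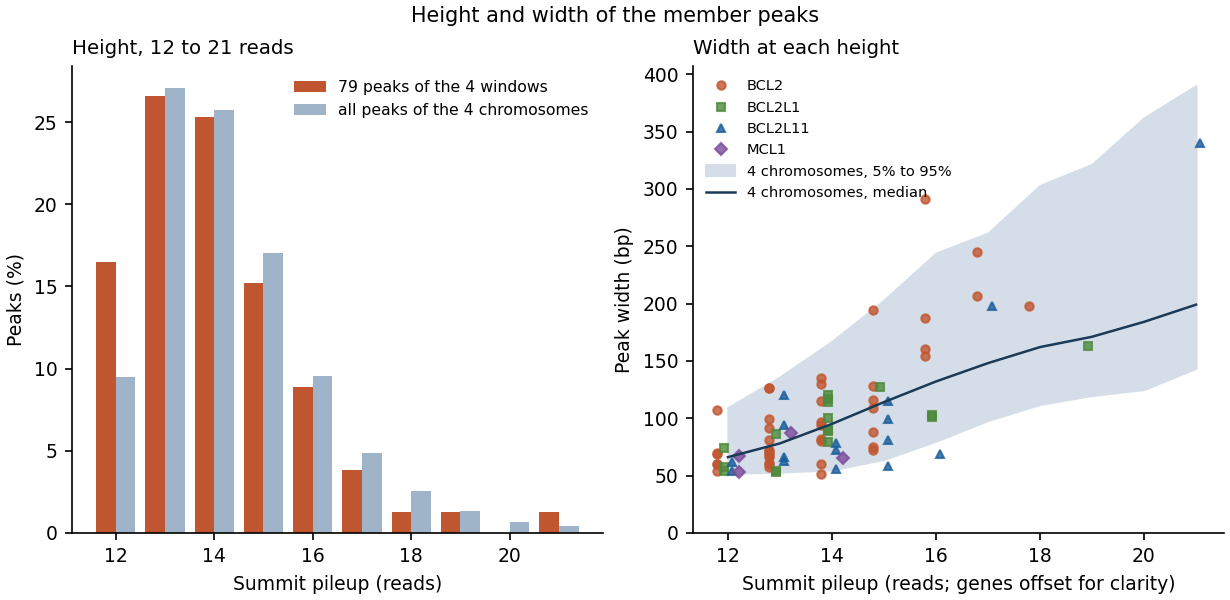
Left, share of peaks (percent) at each summit pileup from 12 to 21 reads for the 79 peaks of the windows and all peaks of the 4 chromosomes. Right, width in bp against pileup for each member, with the median and the 5% to 95% range of the 4 chromosomes. The members lie around the chromosomes' median, and the peak with 21 reads is 340 bp wide.

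The peaks on either side of the 20 kb limit were of like height at some ends and not at others. At the low end of the BCL2L11 window the first inside had 21 reads and 340 bp, and the first outside, 0.624 kb beyond the limit, had 13 reads and 55 bp. At its high end the last inside had 17 reads and the next outside had 14 reads. At the low end of the BCL2 window the first inside had 16 reads and the first outside had 17 reads. At the other ends the peak inside and the peak outside differed by at most 2 reads. Beyond the high end of BCL2 no peak followed for 31.5 kb.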

How the data were processed

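Chromatin from Reh cells with tagged or untagged ETV6 was sequenced after an anti-HA pulldown. Bowtie2 2.2.3, MACS2 2.1.1.20160309 and hg19 are named in the submitters' processing notes, without their settings. In the deposited peak list the authors give a fold (a linear ratio of summit pileup to background), −log10 p and −log10 q, and a score that was not used. The lowest −log10 q shows a q threshold of 0.1. Pileup was solved from fold = (pileup + 1)/(background + 1) and a Poisson upper tail, and came out whole within 0.05 reads for 99.9997% of peaks. On 20000 simulated peaks it was recovered in 100%. These peaks were made with the same formulas, so this checks the solver and not whether the deposited values follow them. The control behind the background is not stated.

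Gene spans were those of the member rule. Peaks per Mb used the span from the first to the last peak of a chromosome. The text names every peak of a window with at most 10, and elsewhere the 5 highest by −log10 q, those with at least 16 reads, the widest and the nearest to the gene start on each side, with ties given as counts. Genes, windows, limits and motifs were chosen with earlier results of these data known. The alternatives tried were other flanks, stricter q, merging, overlap, other chromosome lengths and a local comparison. Other family genes were not analysed here, for want of an hg19 annotation. The software was scipy 1.17.1, pandas 2.3.3 and numpy 2.4.6 under Python 3.11.15, with matplotlib 3.10.9 for plots.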

Additional observations from a re-analysis of the deposited data

How the results depend on the processing

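Of 52 alternatives, 46 kept the value inside its interval (for counts, within 1.5 times), and 6 moved it. Some of those kept say little: the local comparison could not change the share of 16.5%. Assignment by overlap again gave 79 peaks and left every value unchanged. The BCL2L1 ratio, 1.09 with an interval that includes 1, lay below 1 in 3 of its 8 alternatives, at 0.999 for q of at most 0.05, 0.945 for q of at most 0.01 and 0.871 with peaks merged. The other 3 ratios kept their side of 1. The density ratio of BCL2 ranged from 1.79 with peaks within 1000 bp merged to 2.33 for the gene span alone. Its interval stayed above 1 in 6 of 7 alternatives that have one, and at q of at most 0.01, with 7 peaks, the ratio was 1.97 (0.792 to 4.04). That of BCL2L1 reached 1.26 with the local comparison, and that of BCL2L11 ran from 1.58 to 1.94, with an interval above 1 in 2 of 7, for flanks of 50 kb and after merging. The MCL1 ratio was 0 for the gene span alone and 0 at q of at most 0.01, with upper bounds of 5.83 and 3.17. At q of at most 0.01 the windows held 13 peaks with a median width of 187 bp, by construction. The share of 16.5% was 31.6% at a limit of 15 reads and 3.80% at 18 reads, also by construction. The depth limits what can be said of single peaks, since most are within 4 reads of the lowest listed. No paired analysis was possible because the list comes from 1 pooled library, and no replicate could be left out.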
